A study of Schizosaccharomyces pombe with 8 samples.

Results

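The genes described here are those of the heat shock chaperones and of their regulator in fission yeast, 10 protein-coding genes taken by name: hsp16, hsp104, hsp90, ssa1, ssa2, sks2, bip1, mas5, psi1 and hsf1. All 10 were found among the 5129 protein-coding genes of the tables (9111 features kept in all), together with the 11 entries for their coding parts. RNA was measured in Schizosaccharomyces pombe cells that carry flag-tagged Rpb3, a subunit of RNA polymerase II (Pol II). TSA cells were grown with 20 µg/ml trichostatin A for 2.5 h, and untreated cells were grown without it; both groups were in exponential growth, and each had 2 biological replicates. Other alleles of the strain are not given in the labels. From each culture, the RNA held by immunoprecipitated Pol II (IP, called nascent RNA) and the RNA of the lysate (input RNA) were sequenced, which gave 8 libraries of 7218671 to 12591213 reads over annotated features. Budding yeast lysate had been mixed in as 1 part to 50, and the IP libraries were scaled to its ribosomal protein genes (spike-in scale) or, together with the inputs, to total reads (total-read scale).

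Trichostatin A blocks histone deacetylases (HDACs) of both main zinc-dependent classes, so that acetyl groups stay on histones. Heat shock factor, Hsf1 in fission yeast, is the transcription factor that binds heat shock elements, inverted repeats of the bases GAA, in front of chaperone genes, and drives them when unfolded protein accumulates. The chaperones form a relay. Small heat shock proteins such as Hsp16 hold unfolded protein, Hsp70 proteins (Ssa1 and Ssa2 in the cytosol, Sks2 on ribosomes, Bip1 in the endoplasmic reticulum) fold it with the help of J proteins such as Mas5 and Psi1, Hsp90 completes the folding of many signalling proteins, and Hsp104 pulls protein out of aggregates. In fission yeast, Mas5 together with Ssa2 also holds Hsf1 inactive in unstressed cells.

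The genes lie on all 3 chromosomes and run from 854 to 3056 bases, untranslated ends included. Hsp16 (SPBC3E7.02c) lies at chrII:2660139-2660992 on the minus strand, with 432 coding bases in 854. Hsp104 (SPBC16D10.08c) lies at chrII:3612265-3615320 on the minus strand, with 2718 coding bases in 3056. Ssa1 (SPAC13G7.02c) lies at chrI:2295580-2297981 on the minus strand, with 1935 coding bases in 2402. Psi1 (SPCC830.07c) lies at chrIII:2193527-2195545 on the minus strand, with 1140 coding bases in 2019. Hsf1 (SPAC2E12.02) lies at chrI:5059273-5062056 on the plus strand, with 1830 coding bases in 2784. Hsp16, hsp104, ssa1 and psi1 carry most of the differences described, whereas the nascent and input changes of hsf1 were smaller. Hsp90 (SPAC926.04c) lies at chrI:3888558-3891157 on the minus strand. Ssa2 (SPCC1739.13) lies at chrIII:2057084-2059331 on the plus strand. Sks2 (SPBC1709.05) lies at chrII:1106347-1108511 on the plus strand. Bip1 (SPAC22A12.15c) lies at chrI:1182693-1185497 on the minus strand. Mas5 (SPBC1734.11) lies at chrII:1080922-1083347 on the plus strand. Positions are those of the tables, and they match the ASM294v3 assembly, although the study names ASM294v2.

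Heat shock elements were sought in the 300 bases before each annotated gene start, because they are the sites through which Hsf1 would act on these genes. A pair of units, GAANNTTC or TTCNNGAA (each is its own reverse complement, so both strands were covered), was present before 6 of the 10 genes and before 1012 of 5117 protein-coding genes (19.8%). A run of 3 units, GAANNTTCNNGAA or TTCNNGAANNTTC (each the reverse complement of the other, and each holding pairs), was present before ssa1 and ssa2 only among the 10, and before 17 of the 5117 genes (0.332%). The windows of hsp104, sks2, mas5 and hsf1 held neither run of letters, which says nothing of Hsf1 binding there. The last 120 bases before the start of the 6 genes with a match follow, 5′ to 3′ on the strand of the gene, read from the ASM294v3 assembly at the positions given in the tables, with the matches in capitals.
hsp16 (chrII:2660993-2661112, minus strand): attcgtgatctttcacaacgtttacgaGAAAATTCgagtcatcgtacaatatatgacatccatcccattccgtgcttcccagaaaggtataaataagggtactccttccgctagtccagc
ssa1 (chrI:2297982-2298101, minus strand): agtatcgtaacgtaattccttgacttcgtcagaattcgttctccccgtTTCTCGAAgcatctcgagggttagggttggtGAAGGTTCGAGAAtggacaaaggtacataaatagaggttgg
psi1 (chrIII:2195546-2195665, minus strand): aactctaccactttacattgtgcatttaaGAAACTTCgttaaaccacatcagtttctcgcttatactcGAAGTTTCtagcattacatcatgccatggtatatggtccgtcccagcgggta
hsp90 (chrI:3891158-3891277, minus strand): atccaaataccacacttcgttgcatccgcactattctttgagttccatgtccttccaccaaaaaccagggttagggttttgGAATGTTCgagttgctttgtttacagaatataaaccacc
ssa2 (chrIII:2056964-2057083, plus strand): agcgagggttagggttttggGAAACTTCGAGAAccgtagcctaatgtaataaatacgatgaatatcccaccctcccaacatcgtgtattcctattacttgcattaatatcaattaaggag
bip1 (chrI:1185498-1185617, minus strand): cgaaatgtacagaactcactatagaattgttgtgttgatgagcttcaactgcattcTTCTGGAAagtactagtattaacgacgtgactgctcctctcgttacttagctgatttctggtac
The 3-unit element of ssa1 lay 41 to 29 bases before the gene start, and that of ssa2 lay 100 to 88 bases before it. Just upstream of the elements that lie nearest to the gene start in hsp90 and ssa1, and of the element of ssa2, stands a second run, AGGGTTAGGGTT, the longest stretch that these 3 windows share. It was sought because it was seen in them. With both strands searched, it was present before these 3 of the 10 genes and before 15 of the 5117 (0.293%).

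Levels per length placed most of these genes among the strongest of the genome. Per kb of gene, nascent RNA of ssa2 averaged 4920 spike-in normalised reads in TSA cells and 6282 in untreated cells, and it ranked 19 of 5129 in TSA cells and 21 of 5129 in untreated cells. Hsp90 ranked 23 in TSA cells and 28 in untreated cells, hsp16 ranked 25 and 23, and sks2 ranked 40 in both. Hsf1 was the weakest of the 10, with 164 reads per kb in TSA cells and 255 in untreated cells, rank 1424 and 1341. In the input, hsp16, ssa1, hsp104 and psi1 ranked lower than in nascent RNA. Hsp16 ranked 99 in TSA input and 305 in untreated input, and ssa1 ranked 716 and 1003. Hsp104 ranked 351 in TSA input and 480 in untreated input, against nascent ranks of 211 in TSA cells and 158 in untreated cells, and psi1 ranked 432 and 542, against nascent ranks of 357 and 253. Hsf1 was again last, at 1588 and 1917, whereas ssa2, hsp90 and sks2 stayed between 25 and 48 in both. The 10 genes together held 1.90% and 2.01% of the nascent reads of protein-coding genes in TSA cells, against 2.11% and 1.91% in untreated cells. Before scaling, an IP library held 604 to 21837 reads of a gene and an input library 80 to 9414.

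**Figure D1:**
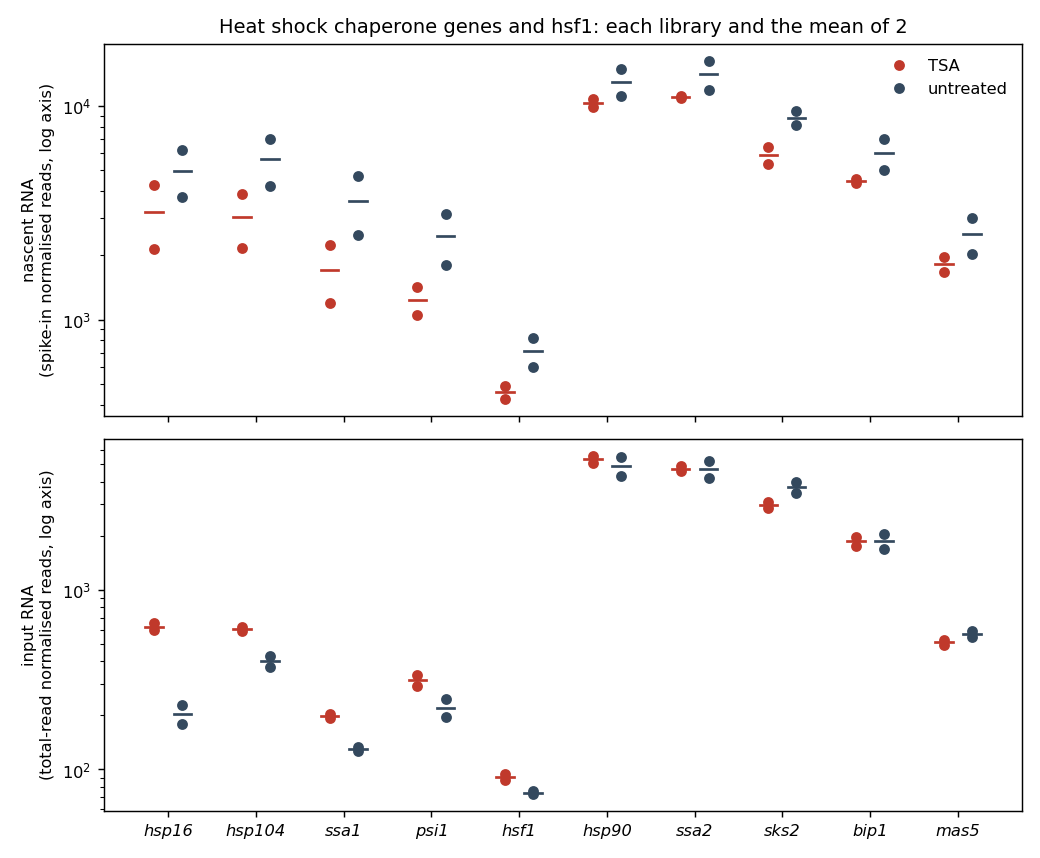
Normalised reads of each gene in each library (points) with the mean of the 2 libraries of a group (bars), on log axes, with TSA left of untreated. Nascent RNA (top, spike-in scale) is lower in both TSA libraries than in both untreated libraries for every gene but hsp16. The same holds for 61.1% of features with input data. Input RNA (bottom, total-read scale) is higher in both TSA libraries for hsp16, hsp104, ssa1, psi1 and hsf1, beside 28.7% of all features.

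The first comparison asked how HDAC inhibition changed Pol II transcription of these genes. On the spike-in scale, nascent RNA of ssa1, a cytosolic Hsp70 gene, fell 2.10-fold in TSA cells. It was the only one of the 10 to pass the test (a call needed both an adjusted p under 0.05 and at least a 2-fold difference), and none rose. Of all 8052 features tested, 6.31% were called lower and 2.10% higher. The libraries held 1195 and 2226 normalised reads of ssa1 in TSA cells, against 4723 and 2486 in untreated cells. Both TSA libraries were below both untreated libraries, but the higher TSA value and the lower untreated value lay close together (log2 change -1.07 ± 0.31 SE, adjusted p = 0.00891, limma).

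The call on ssa1 rested on the replicates. It was lost without untreated IP 1 (log2 change -0.61, adjusted p = 0.16), without TSA IP 1 (-0.62, adjusted p = 0.806) and without TSA IP 2 (-1.52, adjusted p = 0.14). Of these fits, only that without untreated IP 2 kept the call, and psi1, hsp104 and hsp16 joined it there. That fit has 1 untreated library, and the share of all features called lower in it is not given here. Lower calls among all features varied widely between fits without 1 library, so the added genes are no result about this group. DESeq2 on the recovered reads gave ssa1 an adjusted p of 0.199, and edgeR one of 0.0158. Scaling by median ratios also ended the call (-0.62, adjusted p = 0.207). The limma fit of nascent RNA takes each gene's spread from a trend over all features, so the gap between a gene's own replicates does not enter its p.

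The gene of the J protein Psi1 and the disaggregase gene hsp104 had changes near the threshold of 2-fold. Psi1 had 1049 and 1423 spike-in normalised reads in TSA cells, against 3137 and 1810 in untreated cells (log2 change -0.96 ± 0.30 SE, adjusted p = 0.0174). Hsp104 had 2171 and 3895 reads in TSA cells, against 7038 and 4232 in untreated cells (log2 change -0.91 ± 0.32 SE, adjusted p = 0.0372). For both genes the groups did not overlap. Counted by the adjusted p alone, 3 of the 10 genes were lower, ssa1, psi1 and hsp104, beside 13.6% of all features.

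The small heat shock protein gene hsp16 had the widest gap between TSA replicates. Its nascent RNA stood at 2141 and 4265 spike-in normalised reads in TSA cells, against 6221 and 3737 in untreated cells. The groups overlapped (log2 change -0.67 ± 0.32 SE, adjusted p = 0.119). The TSA replicates of hsp16, ssa1 and hsp104 differed by 0.99, 0.90 and 0.84 on the log2 scale. The median gap of protein-coding genes was 0.20, with a 95th percentile of 0.67, and TSA IP 1 was the lower library for all 3. Untreated IP 1 was above untreated IP 2 for all 10 genes, as it was for the median protein-coding gene, by 0.40 on the log2 scale. The untreated gap was wider for ssa1 (0.926), psi1 (0.794), hsp16 (0.735) and hsp104 (0.734), beside a 95th percentile of 0.80 for protein-coding genes. In the other genes it ran from 0.22 (sks2) to 0.56 (mas5).

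Nascent RNA of the other 6 genes lay nearer to the median of all features, which was itself below 0. Hsf1 had 426 and 488 spike-in normalised reads in TSA cells, against 816 and 602 in untreated cells (log2 change -0.61, adjusted p = 0.12). Hsp90 had 10821 and 9892 reads in TSA cells, against 14858 and 11210 in untreated cells (-0.32, adjusted p = 0.537). Ssa2 had 10915 and 11206 in TSA cells, against 16298 and 11945 in untreated cells (-0.34, adjusted p = 0.52). The 2 TSA libraries were below both untreated libraries for these genes, and none passed the test. The ribosome-associated sks2 had 6429 and 5360 in TSA cells, against 9467 and 8123 in untreated cells (-0.58, adjusted p = 0.214). The endoplasmic reticulum gene bip1 had 4549 and 4377 in TSA cells, against 7049 and 5048 in untreated cells (-0.42, adjusted p = 0.353). The J protein gene mas5 had 1961 and 1672 in TSA cells, against 2987 and 2021 in untreated cells (-0.44, adjusted p = 0.288). Here too the groups did not overlap, which held for 4388 of 7183 features with input data (61.1%). The median log2 change of the 10 genes was -0.60, beside -0.49 for protein-coding genes and -0.42 for all features tested.

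The common shift depended on the scale. On the total-read scale the median log2 change of all features was 0.03 and that of the 10 genes was -0.11. None of the 10 was called in either direction, beside 4.45% of features called higher and 0.843% called lower, and none had an unadjusted p under 0.05 in limma; edgeR and DESeq2 called none either. Ssa1, psi1 and hsp104 kept the lowest values, at -0.59, -0.48 and -0.42 on the log2 scale (adjusted p = 0.295, 0.407 and 0.561), and the other 7 lay between -0.19 and 0.17. Hsp90 and ssa2, at 0.17 and 0.15 on this scale, thus changed direction with the scaling, as did bip1 and mas5. Protein-coding genes held 45.6% and 38.3% of the reads over features in TSA IP libraries, against 33% and 47.3% in untreated IP libraries. Total-read values of a gene move with this share, and its part in the values above was not tested.

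Input RNA gave another picture. The inputs were scaled to total reads only, so input changes are relative to the rest of the library. A change of RNA per cell common to all genes would not show in them. The small heat shock protein gene hsp16 rose 3.08-fold in TSA cells, and it was the only one of the 10 called higher, beside 4.53% of 7245 features; none was called lower, beside 1.56%. The TSA inputs held 655 and 595 total-read normalised reads of hsp16, against 178 and 229 in the untreated inputs. The groups stood far apart (log2 change 1.62 ± 0.14 SE, adjusted p = 1.6e-06, limma), and hsp16 stayed called under all 11 alternative settings (log2 changes of 1.44 to 1.80, highest adjusted p = 0.0472). In bulk RNA, a level that differs between groups cannot be split into more RNA per cell and more cells with that RNA.

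Hsp104, ssa1 and psi1 were also higher in TSA input, by less than the 2-fold threshold. Hsp104 had 623 and 594 total-read normalised reads in TSA input, against 371 and 429 in untreated input (1.52-fold, log2 change 0.61 ± 0.13 SE, adjusted p = 0.00574). Ssa1 had 203 and 194 in TSA input, against 127 and 134 in untreated input (1.51-fold, log2 change 0.60 ± 0.14 SE, adjusted p = 0.0107). Psi1 had 292 and 335 in TSA input, against 197 and 245 in untreated input (1.42-fold, log2 change 0.51 ± 0.15 SE, adjusted p = 0.0315). The groups did not overlap for any of them. With hsp16, 4 of the 10 genes were higher by the adjusted p alone, beside 8.01% of all features. Leaving out 1 input library or changing the tool took the adjusted p of hsp104, ssa1 or psi1 as high as 0.219, 0.221 and 0.338.

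The regulator gene hsf1 had 94.3 and 87.3 reads in TSA input, against 75.9 and 73.0 in untreated input, again without overlap (log2 change 0.28 ± 0.16 SE, adjusted p = 0.268). Input levels were thus higher without overlap for 5 of the 10 genes, beside 28.7% of 7183 features. The abundant chaperones did not share these values. Hsp90 had 5546 and 5106 reads in TSA input, against 4331 and 5498 in untreated input (log2 change 0.13, adjusted p = 0.654). Ssa2 had 4867 and 4614 in TSA input, against 4209 and 5242 in untreated input (0.01, adjusted p = 0.97), and bip1 had 1969 and 1750 in TSA input, against 1683 and 2038 in untreated input (0.00, adjusted p = 0.99). The groups of these 3 genes overlapped. Sks2 and mas5 were lower in both TSA inputs than in both untreated inputs. The share of all features with lower input and no overlap was not counted, so this is not read as a trait of these genes. Sks2 had 3066 and 2843 in TSA input, against 3468 and 3992 in untreated input (-0.33, adjusted p = 0.136), and mas5 had 526 and 494 in TSA input, against 548 and 594 in untreated input (-0.16, adjusted p = 0.432).

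The cytosolic Hsp70 genes ssa1 and ssa2 could be told apart by the reads, since 98.9% of the 50-base stretches of each occur once in the genome with 1 mismatch allowed, the rule the authors mapped by, although their coding sequences share 82.9% of aligned bases. For the other 8 genes this share rounded to 100%. Only the fission yeast genome was searched, not that of the budding yeast mixed in.

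**Figure D2:**
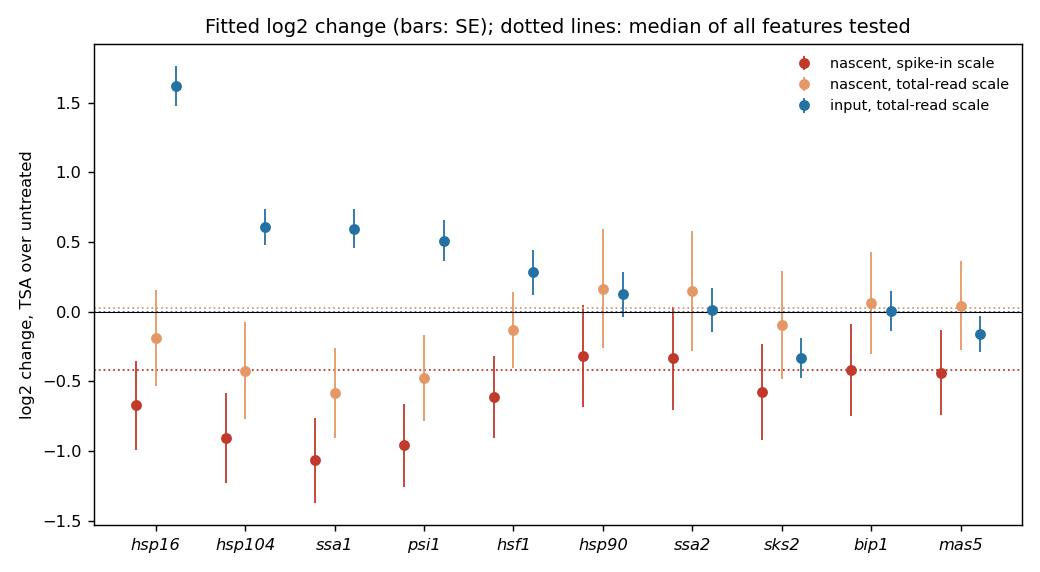
Fitted log2 change of each gene, TSA over untreated, with its standard error, for nascent RNA on both scales and for input RNA; dotted lines mark the median of all features tested. The input value lies above both nascent values for hsp16, hsp104, ssa1, psi1 and hsf1, by up to 1.81 for hsp16 on the total-read scale, and for hsp90, ssa2 and bip1 it lies within the error bar of the nascent value on the total-read scale.

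The second comparison set nascent RNA against input RNA of the same culture, as the log2 ratio minus that of the median protein-coding gene. In untreated cells the 10 genes fell on both sides. Ssa1, hsp16 and hsp104 had 4.18-fold, 3.81-fold and 2.19-fold more nascent RNA relative to input than the median gene, and passed the test. Hsp90, sks2 and ssa2 had 2.36-fold, 2.64-fold and 2.10-fold less, and passed it too. Thus 3 of 10 were called higher and 3 lower, beside 19.1% and 9.54% of all 7183 features. In TSA cells none of the 10 was called higher and 2 were called lower, hsp90 (2.33-fold) and sks2 (2.27-fold), beside 16.3% and 8.20% of features.

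The log2 ratio of hsp16 was -0.39 and 0.58 in TSA cultures, against 2.20 and 1.66 in untreated cultures. That of ssa1 was 0.46 and 1.26 in TSA cultures, against 2.29 and 1.84 in untreated cultures. That of hsp104 was -0.30 and 0.46 in TSA cultures, against 1.33 and 0.93 in untreated cultures. Both TSA cultures were below both untreated cultures for these genes. Psi1 behaved alike, with -0.25 and -0.17 in TSA cultures, against 1.08 and 0.51 in untreated cultures, and hsf1 stood at 0.08 and 0.22 in TSA cultures, against 0.51 and 0.67 in untreated cultures. Lower ratios without overlap were found for these 5 of the 10 genes, beside 22.5% of 7183 features. The ratios of hsp90 barely moved, at -1.13 and -1.30 in TSA cultures, against -1.13 and -1.34 in untreated cultures. Those of ssa2 were -0.93 and -0.98 in TSA cultures, against -0.96 and -1.18 in untreated cultures, and those of bip1 were -0.89 and -0.93 in TSA cultures, against -0.84 and -1.06 in untreated cultures. The cultures of these 3 genes overlapped. Sks2 stood at -1.03 and -1.34 in TSA cultures, against -1.46 and -1.34 in untreated cultures. Mas5 stood at -0.20 and -0.50 in TSA cultures, against -0.47 and -0.60 in untreated cultures, so that neither gene had separate groups beyond a tie.

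**Figure D3:**
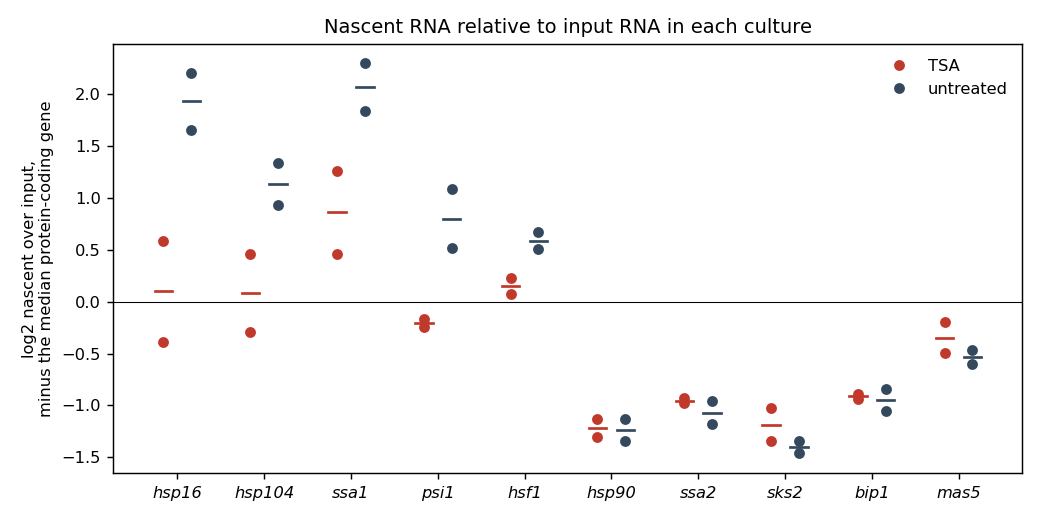
Log2 ratio of nascent to input RNA of each gene in each culture (points; bars are means of 2), relative to the median protein-coding gene at 0, with TSA left of untreated. Hsp16, hsp104, ssa1, psi1 and hsf1 are lower in both TSA cultures than in both untreated cultures, beside 22.5% of all features, whereas hsp90, ssa2 and bip1 lie between -1.34 and -0.84 in every culture.

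Tested as a change of the ratio by TSA, no gene passed in limma, beside 0% of all features in either direction, nor did any of the 10 under the 8 alternative settings tried. Hsp16 had the largest change of the 10 (log2 change -1.81 ± 0.43 SE, unadjusted p = 0.00496, adjusted p = 0.4), and 0.222% of protein-coding genes had a lower value. Ssa1, hsp104 and psi1 followed with -1.18, -1.03 and -0.99 (adjusted p = 0.502, 0.5 and 0.467), below which 1.67%, 2.56% and 2.96% of protein-coding genes lay. These 4 genes had an unadjusted p under 0.05, as did 692 of all 7183 features. Hsf1 followed at -0.42, and the other 5 lay between 0.04 and 0.24. On the total-read scale, nascent RNA was lower in both TSA libraries and input RNA higher in both, with no overlap, for 4 of the 10 genes (hsp104, ssa1, psi1 and hsf1), beside 2.74% of 7183 features. Hsf1 met this by a narrow gap, with 602 and 604 nascent reads in TSA cells, against 606 and 724 in untreated cells. Nascent RNA of hsp16 overlapped on that scale, with 3025 and 5276 reads in TSA cells, against 4620 and 4496 in untreated cells. The 4 genes hsp16, hsp104, ssa1 and psi1 together made up 0.299% and 0.528% of nascent protein-coding reads in TSA cells, against 0.613% and 0.457% in untreated cells. Their share of input protein-coding reads was 0.120% and 0.124% in TSA cells, against 0.0605% and 0.0764% in untreated cells. These 4 genes were pooled after their values were seen, so the higher input share follows from that choice. All 10 genes held 1.20% and 1.20% of input protein-coding reads in TSA cells, against 1.05% and 1.36% in untreated cells, with overlap.

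**Figure D4:**
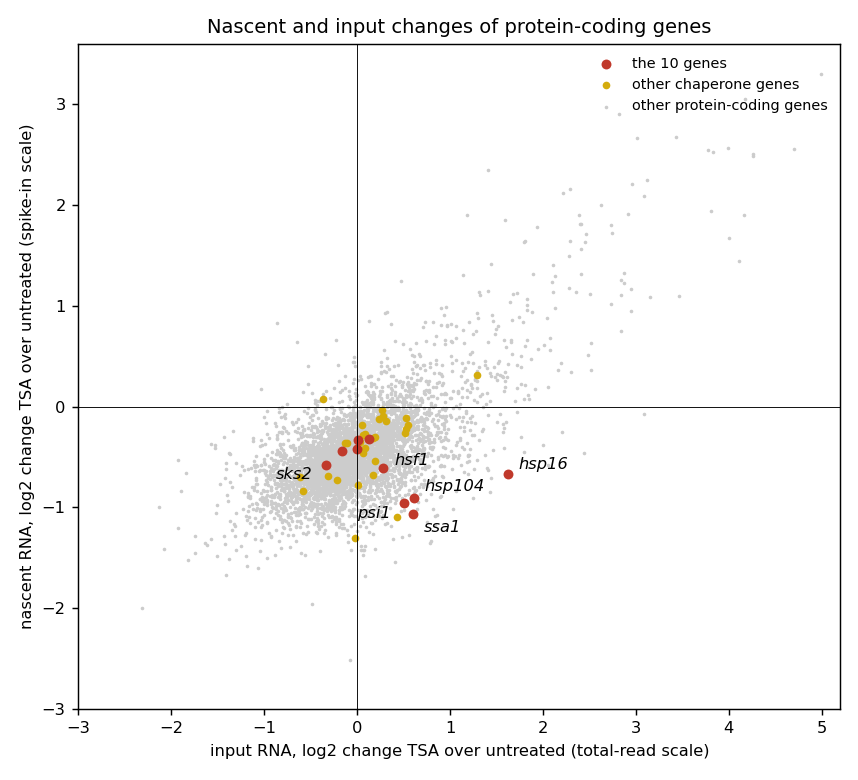
Log2 change of input RNA (x axis, total-read scale) against that of nascent RNA (y axis, spike-in scale), TSA over untreated, for each protein-coding gene tested in both (grey), other chaperone genes (yellow) and the 10 genes (red, 6 of them named). Hsp16 at 1.62 and -0.67 and ssa1, hsp104 and psi1 lie at the lower right of the cloud, and hsp90, ssa2, bip1 and mas5 lie inside it. A shift common to all genes would show on the y axis only.

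Coding parts were tested on their own, because an annotated gene can take in reads of neighbours at its ends. The coding part of ssa1 had 896 and 1831 spike-in normalised nascent reads in TSA cells, against 3876 and 1847 in untreated cells, and was the only one called lower (log2 change -1.04 ± 0.29 SE, adjusted p = 0.00996), beside 2.96% of 4601 coding parts. The coding part of hsp16 rose in the input, with 259 and 230 total-read normalised reads in TSA cells, against 75.1 and 105 in untreated cells. It was the only one called higher (log2 change 1.40 ± 0.16 SE, adjusted p = 7.06e-17, limma), beside 2.61% of 4519. That p is smaller than that of the whole gene, although the change is smaller and its standard error larger. A p of this size implies a spread taken almost fully from the trend, so the gap between the replicates of hsp16 hardly enters it. The call on ssa1 was lost with 4 times the pseudocount (log2 change -0.99), with median-ratio scaling (-0.53), under DESeq2 (adjusted p = 0.224) and with the replicate number as a block (adjusted p = 0.0853), beside the library losses seen for the whole gene.

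The part of the transcript outside the coding sequence changed most for hsp104. It had 304 and 541 nascent reads in TSA cells, against 1478 and 1060 in untreated cells, without overlap, while the coding part had 1867 and 3355 in TSA cells, against 5560 and 3172 in untreated cells, with overlap. The ratio of the outer part to the coding part was thus lower in TSA cells (log2 change -0.87 ± 0.31 SE, unadjusted p = 0.00725, adjusted p = 0.209), and 0.949% of coding genes had a lower value. No gene of the 10 passed this test, beside 0.453% of 4638 genes called higher and 0.194% called lower, and the other 9 lay between -0.45 and 0.23. For hsf1, whose 3′ part overlaps a gene on the other strand, that value was -0.45 (adjusted p = 0.636).

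Other chaperone and co-chaperone genes were taken from a list of 32 names by textbook role, of which 30 were found. In nascent RNA on the spike-in scale 2 of 30 were called lower and none higher, beside 6.31% and 2.10% of all features, with a median log2 change of -0.32. The lower genes were hsp9, whose budding yeast relative is the stress protein Hsp12, and hsp78, which encodes a mitochondrial disaggregase. Hsp9 had 1865 and 6269 reads in TSA cells, against 9980 and 7193 in untreated cells (log2 change -1.31 ± 0.33 SE, adjusted p = 0.00288). As for hsp16, TSA IP 1 was far below TSA IP 2. Hsp78 had 917 and 1449 in TSA cells, against 3203 and 1917 in untreated cells (-1.10 ± 0.30 SE, adjusted p = 0.00586), and 240 and 258 in TSA input, against 165 and 208 in untreated input (0.43, adjusted p = 0.0697). Its ratio of nascent to input RNA changed by -1.04 (adjusted p = 0.467), close to hsp104. The highest nascent values of the list were those of hsp20, a small heat shock protein gene (0.31, adjusted p = 0.449), and bag102, for a nucleotide exchange factor of Hsp70 (0.08, adjusted p = 0.87).

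In the input, 1 of the 30 was called higher and none lower, beside 4.53% and 1.56% of all features. Hsp20 had 90.7 and 82.1 reads in TSA input, against 34.0 and 35.6 in untreated input (2.44-fold, log2 change 1.28 ± 0.19 SE), and an adjusted p of 0.000232. Unlike that of hsp16, its nascent RNA did not overlap on the total-read scale, with 624 and 521 reads in TSA cells, against 291 and 369 in untreated cells (0.79, adjusted p = 0.0322). The difference between the ratio changes of these 2 genes was not tested. By the adjusted p alone, 4 of the 30 were higher in TSA input, beside 8.01% of all features, hsp20 and the Hsp90 co-chaperone genes sti1, aha1 and wos2, and 1 was lower, zuo1 for a ribosome-associated J protein. The last 4 were named after their values were seen, none of them reached 2-fold, and the median of the list was 0.10. On the total-read scale none of the 30 was called in nascent RNA, and none was called in the change of the ratio.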

How the data were processed

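NET-seq of S. pombe (nascent RNA from Rpb3-flag immunoprecipitates, and input RNA) was analysed for 2 TSA and 2 untreated cultures. Per the study's methods, adapters were removed with cutadapt, and the authors retained Bowtie alignments that were unique at up to 1 mismatch; the genome they name is ASM294v2. NET-seq is described as strand specific, but the annotation of the tables and their rule for strands are not given in the sources used here. The deposited values are read counts for the library of each table with factor 1, and otherwise a signal, counts that the authors scaled by a single factor in each library (S. cerevisiae ribosomal protein genes or total uniquely mapped reads). Whole reads were recovered for 100% of values at a tolerance of 0.001 of a read. Reads over features numbered 7218671 to 10436194 in IP and 8104143 to 12591213 in input libraries, with 245 to 427 and 43 to 64 reads per median protein-coding gene.

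Features with a mean above the pseudocount (10th percentile of non-zero values: 6.00 nascent spike-in scale, 6.58 nascent total-read scale, 1.18 input) were tested with limma 3.58.1 (lmFit, eBayes with trend) on log2(value + pseudocount), so fold changes are on that scale and understate low genes. P values were adjusted over all features (Benjamini-Hochberg), and calls needed an adjusted p under 0.05 and 2-fold. For nascent RNA, and by the size of its p values also for input RNA of coding parts, the variances were shrunk fully to the trend. With 2 cultures a group, those p values reflect the typical spread between replicates at a given level, not the gap of the gene itself. IP and input libraries of 1 group and replicate number were taken as 1 culture. Alternatives were the pseudocount, the filter, median-ratio scaling, edgeR 4.0.16 and DESeq2 1.42.0 on recovered reads, the replicate number as a block, and leaving out each library. The limma step was also run on simulated reads with a common dispersion and no library factors. Those settings differ from these libraries, so that run says nothing of the error rate here.

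The 10 genes, the list of other chaperones and the named-gene rule (all 10, and of the others those called in a TSA comparison or with the 2 highest or 2 lowest nascent changes) were chosen with earlier results of these data known. The genes lhs1 and caj1 of the list were not matched by name. At the positions of the tables, 5116 of 5119 coding transcripts begin with ATG and end with a stop codon in the ASM294v3 assembly of RefSeq, which was therefore used for sequences. The authors' summed columns were not used.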

Additional observations from a re-analysis of the deposited data

Results flagged for a closer look

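For hsp104, ssa1, psi1 and hsf1, nascent RNA was lower and input RNA higher in both TSA cultures than in both untreated cultures on the total-read scale, so that the same contrast ran in opposite directions in the 2 kinds of library. The difference itself was tested as the change of the ratio of nascent to input RNA. Its log2 value was -1.03 for hsp104 (adjusted p = 0.5), -1.18 for ssa1 (adjusted p = 0.502), -0.99 for psi1 (adjusted p = 0.467) and -0.42 for hsf1 (adjusted p = 0.658), none of which passed. Their sign follows from how they were chosen. For hsf1, the nascent groups were 2 normalised reads apart at their nearest, 604 in TSA IP 2 and 606 in untreated IP 1.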

How the results depend on the processing

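Hsp16 was called higher in the input under all alternatives. The single nascent call on the spike-in scale, ssa1, became 0 with median-ratio scaling and 2 with edgeR (ssa1 and psi1, psi1 at the 2-fold limit), and DESeq2 called psi1 alone. Leaving out 1 IP library gave 0 to 4 genes, 4 without untreated IP 2 and 0 without any other. Among all features on that scale, 169 higher and 508 lower calls became 60 and 257 with 4 times the pseudocount, 316 and 60 with median-ratio scaling, and 74 and 167 with the replicate number as a block. They ranged from 32 to 220 and from 3 to 1367 without 1 library. Same-numbered IP libraries did not deviate together (correlation -0.20 on the spike-in scale), and the block lost no call of the 10 genes except that on the coding part of ssa1. A crossed block, chosen after seeing the data, gave 169 higher and 508 lower.

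On the total-read scale, 359 higher and 68 lower nascent calls became 141 and 20 with 4 times the pseudocount. Lower calls numbered 117 with the pseudocount divided by 4 and 104 with edgeR. Without 1 library they ranged from 308 to 553 and from 41 to 114. In the input, 328 higher and 113 lower calls became 210 and 62 with 4 times the pseudocount and 114 and 42 with DESeq2, and ranged from 32 to 337 and from 9 to 159 without 1 library. The coding part of ssa1 lost its nascent call (0 genes called) with 4 times the pseudocount, median-ratio scaling, DESeq2 and the replicate block, and 0 to 4 genes were called without 1 library. Below the median in nascent over input of TSA cells, 2 genes became 4 when centred on all features (bip1 and ssa2 added), and 0 without either TSA culture.

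Directions turned only for uncalled genes. Median-ratio scaling gave nascent log2 changes of 0.13 for hsp90, 0.11 for ssa2, 0.029 for bip1 and 0.007 for mas5 with spike-in scaled values. For the total-read values, leaving out 1 library gave -0.59 to 0.21 for hsp16, -0.33 to 0.14 for sks2, -0.058 to 0.19 for bip1 and -0.17 to 0.25 for mas5. In the input it gave -0.047 to 0.30 for hsp90, -0.15 to 0.17 for ssa2 and -0.13 to 0.14 for bip1, and for the change of the ratio -0.061 to 0.14 for hsp90. The causes were not tested. With 2 cultures a group, and 80 to 9414 reads of a gene in an input library, changes under 2-fold were at the limit of these data.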

Other observations

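Transcripts annotated antisense to these genes were chosen for description after their values were seen. Of 12 non-coding features that overlap 7 of the 10 genes on the other strand, 9 had a mean above the pseudocount in nascent RNA. These were tested, and on the spike-in scale 8 were called lower in TSA cells and none higher. Several of these calls rest on few reads. The called features novelncTU_188, novelncTU_80 and novelncTU_81 averaged 3.40, 5.02 and 5.72 spike-in normalised reads in TSA cells, below the pseudocount. Their untreated means were 14.2, 18.5 and 19.8, and they passed the filter only through those values. Among all features, 14.7% of nc-TU, 8.20% of annotated ncRNA and 5.06% of XUT (Xrn1-sensitive transcripts) were called lower. On the total-read scale 2 of the 9 were called lower, beside 0.843% of all features. The strongest was SPNCRNA.1409, which overlaps the first part of mas5. It had 39.7 and 53.4 spike-in normalised reads in TSA cells, against 214 and 132 in untreated cells (log2 change -1.74, adjusted p = 1.51e-05), and -1.30 on the total-read scale (adjusted p = 1.2e-05). XUT1208, antisense to hsp104, had 5.52 and 8.89 reads in TSA cells, against 45.0 and 15.9 in untreated cells (-1.35, adjusted p = 0.004). XUT1135, antisense to hsp16, had 13.8 and 38.8 in TSA cells, against 98.0 and 42.1 in untreated cells (-1.25, adjusted p = 0.0068). The levels were low beside the sense gene. XUT1135 stood at 0.644% and 0.910% of hsp16 in TSA cells, against 1.58% and 1.13% in untreated cells, and its low and high libraries were the same as those of hsp16. NET-seq is described as strand specific, but how the tables assign reads to strands is not stated, and the part of stray sense reads in these values was not tested.

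Just downstream of hsp16 on the same strand lies the annotated ncRNA SPNCRNA.1540. It had 674 and 1528 spike-in normalised nascent reads in TSA cells, against 1248 and 1125 in untreated cells, with TSA IP 1 again the lowest library. In the input it had 7.07 and 3.46 total-read normalised reads in TSA cells, against 2.89 and 2.74 in untreated cells. With 1 read worth 0.589 to 0.912 in the input libraries, these are few reads, and only TSA input 1 stands apart.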
